A study of Homo sapiens with 6 samples.

Results

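Ribosome assembly and small nucleolar ribonucleoprotein (snoRNP) proteins were examined as a set of 41 genes in U2OS cells silenced for CCAR2. The set was chosen by gene name, with earlier results of these data known. It holds 4 core proteins of C/D snoRNPs, 4 core proteins of H/ACA snoRNPs and 33 other factors of ribosome assembly and ribosomal RNA transcription. On the array, 64 of 47321 probes named 37 of the 41 genes. For WDR43, DDX18, EBNA1BP2 and GNL3 no probe was named in the annotation used here. Of the 64 probes, 57 were detected in at least 1 array, 55 in all 6 and 7 in none, so that 35 members entered the test among 12013 genes.

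U2OS is a human osteosarcoma cell line. Cells received a pool of 4 siRNAs against CCAR2 (siCCAR2, arrays D, E and F) or a control siRNA (siLUC, which the labels call siCTRL, arrays A, B and C), and RNA was taken 6 days later from 3 independent preparations per condition. The readout was the signal of Human HT12_v4 bead arrays, given here as normalized log2 signal, in which a difference of 1 is a doubling. All 6 arrays lay on 1 chip, siCCAR2 in later positions than siLUC, so that position on the chip and silencing cannot be told apart.

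Ribosomes are assembled in the nucleolus. RNA polymerase I transcribes a long precursor, large protein complexes fold and cut it, and the small and large subunits leave as separate particles. Along the way snoRNPs modify the precursor: each holds a guide RNA that pairs with the site to be changed and a fixed core of 4 proteins. C/D particles add methyl groups to the ribose, through fibrillarin (FBL), and H/ACA particles turn uridine into pseudouridine, through dyskerin (DKC1). The synthesis of ribosomes follows cell growth, and many of its genes are known targets of the transcription factor MYC, which binds with its partner MAX to the E-box sequence.

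CCAR2 itself, the silenced gene, read 9.88, 9.96 and 9.91 in the siCCAR2 arrays D, E and F and 11.43, 11.34 and 11.01 in the siLUC arrays A, B and C. It was 2.53-fold lower in siCCAR2 cells (log2 fold change -1.34, SE 0.15, limma adjusted p = 0.0394), one of 3 genes called in the whole table by the unpaired fit. With the pairs A-D, B-E and C-F as a replicate block, which the labels do not give, 200 genes were called. With 1 array left out, the CCAR2 log2 fold change had an adjusted p of 0.0463 (without B) to 0.422 (without F). Per array, 37.2% to 41.0% of probes were detected, and the median bead signal was between 105.9 and 123.4. Of 12 osteosarcoma or mesenchymal markers, 10 were detected in every array (COL1A2 and TWIST1 in none). Of these 10, 8 lay below 0, with a median of -0.14, and SPARC, a bone matrix protein named here after its value was seen, was called 3.26-fold lower in siCCAR2 cells (log2 fold change -1.71, limma adjusted p = 0.0394). Their part in the results for the members was not tested. Epithelial markers were detected in every array for 1 of 8 (EPCAM), blood markers for 0 of 7 with a probe, endothelial markers for 0 of 6 and nerve or liver markers for 2 of 7 (ALB and SNAP25). In such a bulk sample, a change in RNA per cell and a change in the mixture of cells cannot be told apart.

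No member of the set passed the test. At a fold change of at least 1.5 with a limma adjusted p of at most 0.05, 0 of 35 members were called, beside 0.025% of all genes. At an unadjusted p under 0.05 the count was 0 of 35 as well, against 6.49% of all genes. In 0 of 35 members did the siCCAR2 and siLUC arrays separate without overlap, where 5.68% of all genes separated with siCCAR2 lower and 6.35% with siCCAR2 higher. The log2 fold changes ran from -0.22 (UTP3) to 0.35 (NOP16), the largest of them 1.27-fold, and the smallest adjusted p was 0.832. Single arrays moved these values: with 1 array left out, NOP16 had a change of 0.11 (without C) to 0.82 (without B). Leaving out 1 array also breaks one of the pairs A-D, B-E and C-F. Within these pairs NOP16 differed by 0.19, 0.21 and 0.64. It was one of 12 of 35 members above 0 in all 3 pairs, against 20.2% of all genes. The median over the 35 members was 0.08, beside 0.0042 over all genes. It lay below 0 (at -0.04) without array E and at 0.21 without array B. The setting without both is given below. The change was above 0 in 24 members and below 0 in 11, while 49.1% of all genes lay below 0.

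The members differed more among the arrays of a condition than between the conditions. In 32 of 35 members the change was smaller than the pooled SD of the replicates, against 67.0% of all genes. This SD includes what the arrays of the pairs A-D, B-E and C-F share. Over all genes, deviations from the group means correlated at 0.61, 0.67 and 0.44 in these pairs. A comparison within the pairs is given below. Array E of siCCAR2 and array B of siLUC carried the high values: 31 of the 35 members reached their highest signal in one of them (20 in E, 11 in B), against 33.9% of all genes. In 28 members, NHP2 with its equal values in E and F included, E and B were the 2 highest of the 6 arrays, against 16.1% of all genes. Set against each gene's mean over the 6 arrays, the median member stood at -0.13 in D, 0.28 in E and -0.04 in F, and at -0.18 in A, 0.26 in B and -0.23 in C. For all genes these medians lay within 0.011 of 0 in every array. Quantile normalization, which gives all arrays the same distribution, largely fixes this in advance.

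**Figure D1:**
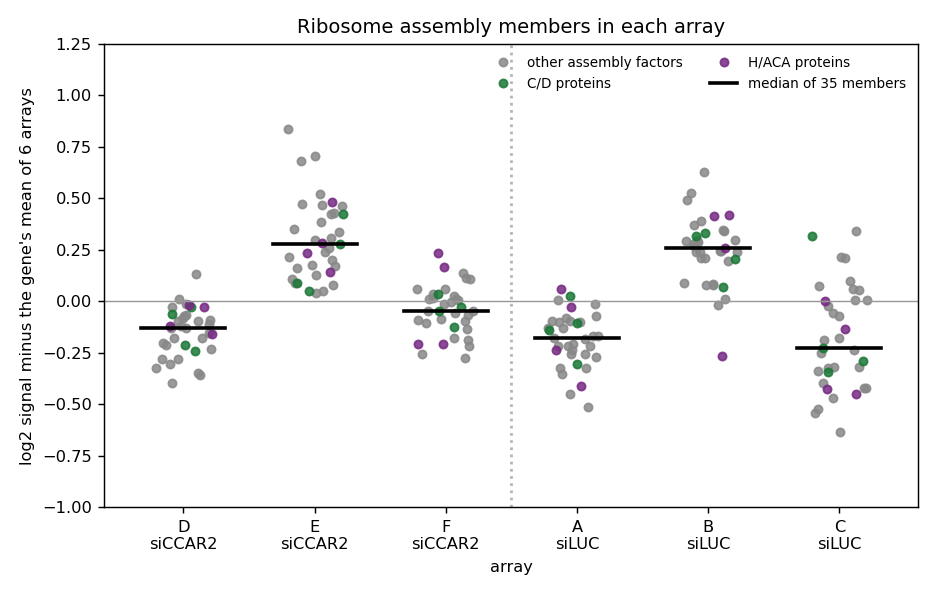
The log2 signal of each of the 35 members tested, minus that gene's mean over the 6 arrays (y axis), is drawn for each array (x axis, siCCAR2 arrays D to F left of siLUC arrays A to C). Points are genes coloured by subgroup and bars are medians, which stand at 0.28 in E and 0.26 in B and below 0 in the other 4 arrays.

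B and E also had the fewest probes detected, 18107 in E and 17583 in B, against 18244 to 19408 in the other arrays. E had the highest median signal before normalization and B did not, at 123.4 and 110.9. Whether either quantity bears on the members was not tested. MYC, which is not a member, read 11.53, 11.99 and 11.89 in D, E and F and 11.06, 12.01 and 11.27 in A, B and C, with E and B again the highest of their conditions. Its F value lay close to its E value, and its change was 0.35 (SE 0.25, limma adjusted p = 0.832). The MYC network, a list of 9 tested genes with MYC among them, did not share the high values in E and B. Set against each gene's mean over the 6 arrays, its median stood at -0.22 in E and -0.02 in B. Of the 9 genes, 4 were lowest and 0 highest in E, while 1 was lowest and 2 were highest in B.

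The sequence of the promoters was looked at for what the members share. The E-box CACGTG, which reads the same on both strands, lay between 250 bases before and 50 bases after a start site in 14 of the 33 members with a promoter entry in RefSeq (GRCh38.p14), or 42.4%, against 8.77% of 27305 genes. The ETS sequence CCGGAAGT, searched on both strands, lay in 8 of 33 (24.2%), against 4.95% of genes. Neither motif can overlap the other, as no end of one begins the other on either strand. A match is a description of letters and not a bound site. The windows of 5 members with the E-box near the start and of 2 without any E-box are shown because they set both kinds of member side by side, and all of these but NOP10 were highest in array B or E. Each runs from 70 bases before the start site over 25 bases from it on, 5′ to 3′ along the gene, with the E-box in capitals.
FBL, chr19:39846355-39846449, minus strand: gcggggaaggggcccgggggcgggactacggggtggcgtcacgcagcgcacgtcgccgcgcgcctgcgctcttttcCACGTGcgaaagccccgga
NOP10, chr15:34343112-34343206, minus strand: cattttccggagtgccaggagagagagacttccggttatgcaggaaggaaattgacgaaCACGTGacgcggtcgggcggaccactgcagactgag
RRP9, chr3:51941880-51941974, minus strand: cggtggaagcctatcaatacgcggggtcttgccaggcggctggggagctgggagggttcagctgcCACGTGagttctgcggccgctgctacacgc
UTP4, chr16:69132579-69132673, plus strand: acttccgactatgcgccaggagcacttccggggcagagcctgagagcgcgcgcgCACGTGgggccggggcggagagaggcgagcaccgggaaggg
NOP14, chr4:2963382-2963476, minus strand: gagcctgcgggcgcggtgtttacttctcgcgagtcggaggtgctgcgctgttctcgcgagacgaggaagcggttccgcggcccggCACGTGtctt
NOP16, chr5:176388574-176388668, minus strand: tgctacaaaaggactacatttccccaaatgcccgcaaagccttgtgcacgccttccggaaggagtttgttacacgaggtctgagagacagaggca
NOP56, chr20:2652562-2652656, plus strand: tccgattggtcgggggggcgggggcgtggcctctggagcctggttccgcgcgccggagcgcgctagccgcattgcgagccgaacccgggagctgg

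Most members were highest in array B or E, whether or not they hold the E-box. Of the 10 tested members that hold it, 8 were highest in B or E, 7 lay above 0 and the median change was 0.16. Of the 18 tested members with a promoter entry that lack it, 17 were highest in B or E, 14 lay above 0 and the median change was 0.08. NOP16, with no E-box in its window, spread the widest over the arrays (pooled SD 0.65), and FBL, with one, had a pooled SD of 0.16. Other members went the other way: DDX21, with an E-box, had 0.41 and RRN3, without one, had 0.12. Spread was not compared by motif.

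In the C/D core, siCCAR2 and siLUC arrays overlapped for all 4 genes. FBL, the methyltransferase, read 12.27, 12.35 and 12.27 in the siCCAR2 arrays D, E and F and 12.32, 12.50 and 12.07 in the siLUC arrays A, B and C. The siCCAR2 values lay inside the range of the siLUC values, and the change was -0.00082 (95% interval -0.34 to 0.33). NOP56, one of the paired scaffold proteins of the particle, read 11.13, 11.66 and 11.41 in D, E and F and 11.27, 11.69 and 11.09 in A, B and C. NOP58, its partner in the scaffold, read 12.10, 12.40 and 12.19 in D, E and F and 12.17, 12.38 and 12.63 in A, B and C, so that its highest array was C and not B.

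The change was 0.05 (95% interval -0.40 to 0.50) for NOP56 and -0.16 (-0.53 to 0.20) for NOP58, and for both genes the conditions overlapped. SNU13, which binds the kink-turn of the guide RNA and also belongs to the U4 spliceosomal particle, read 10.36, 10.84 and 10.37 in D, E and F and 10.11, 10.75 and 10.07 in A, B and C. Its change was 0.21 (-0.28 to 0.70), set by A and C lying below all siCCAR2 arrays while B lay above D and F. With 1 array left out it was -0.04 (without C) to 0.63 (without B). The median over the 4 genes was 0.02, with 2 above 0 and 2 below.

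In the H/ACA core, NOP10 alone was low in B. DKC1, the pseudouridine synthase, read 12.74, 13.38 and 12.69 in D, E and F and 12.66, 13.16 and 12.76 in A, B and C. Its change of 0.08 (95% interval -0.42 to 0.57) was small beside the gap between E and its own replicates. GAR1, which joins the particle last and helps release the modified RNA, read 9.99, 10.39 and 9.90 in D, E and F and 10.17, 10.53 and 9.68 in A, B and C, a change of -0.03 (-0.55 to 0.48).

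NHP2, which binds the guide RNA, read 11.31, 11.57 and 11.57 in D, E and F and 10.92, 11.75 and 10.88 in A, B and C. Its change of 0.29 (95% interval -0.23 to 0.82) came with the highest single value in a siLUC array, B, and was 0.05 without C and 0.57 without B. NOP10, the small protein that links dyskerin to the rest of the core, went another way: it read 13.04, 13.21 and 13.23 in D, E and F and 13.03, 12.80 and 13.06 in A, B and C. Here B was the lowest array. The change of 0.20 (-0.12 to 0.51) had a limma adjusted p of 0.832, and the exact permutation p over the 6 arrays was 0.2, the smallest of any member, in a design that cannot go below 0.1. The H/ACA median was 0.14, with 3 genes above 0 and 1 below.

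**Figure D2:**
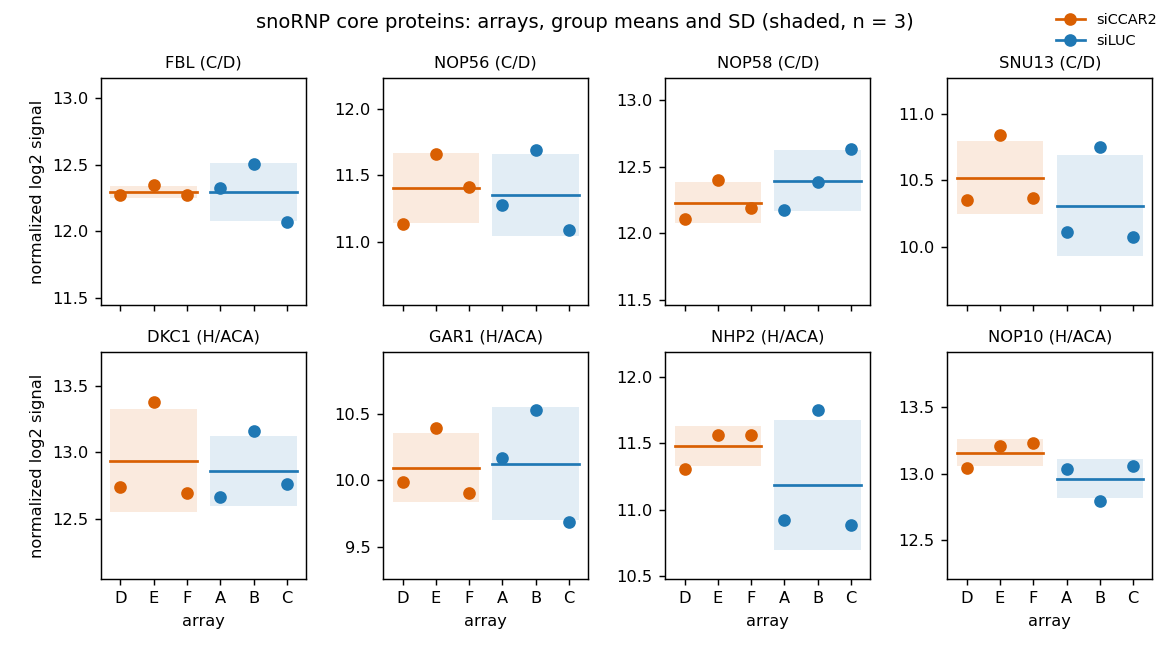
Normalized log2 signal (y axis) of the 8 snoRNP core proteins in each array (x axis), with siCCAR2 arrays D to F left of siLUC arrays A to C. Lines are group means and shading is 1 SD either way (n = 3), and the groups overlap in all 8 genes.

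The members NAF1, NOLC1 and RRP9, which build or accompany snoRNPs, had no common direction. NAF1, the assembly factor that GAR1 later replaces in H/ACA particles, read 8.04, 8.28 and 7.93 in D, E and F and 8.02, 8.47 and 8.40 in A, B and C, a change of -0.21 (SE 0.17, limma adjusted p = 0.845). NOLC1, a nucleolar and Cajal body phosphoprotein that binds snoRNPs, read 9.52, 10.07 and 9.54 in D, E and F and 9.24, 9.83 and 9.35 in A, B and C, a change of 0.24 (SE 0.21, adjusted p = 0.854). RRP9, a protein of the U3 particle, which takes part in cutting the precursor, read 7.60, 8.26 and 7.92 in D, E and F and 7.48, 8.18 and 7.38 in A, B and C. For RRP9 the change was 0.25 (SE 0.24), with E and B far above their replicates.

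The remaining small subunit factors among the members ran from UTP3 to HEATR1. HEATR1, part of the complex that binds the start of the precursor, read 10.91, 11.55 and 10.99 in D, E and F and 10.86, 11.28 and 10.61 in A, B and C, a change of 0.24 (SE 0.22). UTP3, a protein of the early small subunit particle, read 11.00, 11.14 and 10.82 in D, E and F and 11.10, 11.08 and 11.44 in A, B and C, a change of -0.22 (SE 0.16, limma adjusted p = 0.832). UTP18, of the same particle, read 9.81, 10.22 and 10.19 in D, E and F and 10.04, 10.36 and 10.38 in A, B and C, a change of -0.19 (SE 0.17). For UTP3 and UTP18, C was the highest array. UTP4, UTP15, WDR75 and NOP14, other proteins of the early small subunit precursor, had changes of 0.13, 0.03, -0.06 and 0.02. UTP20 had 3 probes, none of them detected in any array.

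Among large subunit factors, the 3 partners of the PeBoW complex had values on both sides of 0. PES1 read 10.03, 10.48 and 10.00 in D, E and F and 9.75, 10.36 and 9.47 in A, B and C, a change of 0.31 (SE 0.24, limma adjusted p = 0.841). BOP1 read 13.24, 13.38 and 13.08 in D, E and F and 13.17, 13.53 and 13.20 in A, B and C, a change of -0.07 (SE 0.16). WDR12 had a change of 0.10 (SE 0.18). Differences between these 3 changes were not tested.

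NOP16, a nucleolar protein of the large subunit pathway, had the highest change of all members and the widest spread. It read 9.10, 10.26 and 9.43 in D, E and F and 8.91, 10.05 and 8.79 in A, B and C, so that E and B each lay far above both replicates. Its change of 0.35 had an SE of 0.38 (95% interval -0.51 to 1.20, limma adjusted p = 0.884), and its SD was 0.60 in siCCAR2 and 0.69 in siLUC (n = 3 each). NOP2, a methyltransferase of the large subunit RNA, read 9.09, 9.57 and 9.25 in D, E and F and 8.74, 9.68 and 8.79 in A, B and C, a change of 0.24 (SE 0.26).

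RRP1B, a nucleolar protein of the large subunit pathway, read 9.23, 9.74 and 9.22 in D, E and F and 9.22, 9.73 and 9.49 in A, B and C, a change of -0.09 (SE 0.19). RRS1, BRIX1 and NIP7, also of the large subunit, had changes of 0.21, -0.06 and 0.09. The helicases DDX21 and DDX10 had changes of 0.20 and 0.14. None of these passed the test.

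Nucleolin (NCL), an abundant RNA-binding protein of the nucleolus, read 13.16, 13.40 and 13.14 in D, E and F and 13.21, 13.37 and 13.38 in A, B and C, a change of -0.08 (SE 0.14). Nucleophosmin (NPM1) had 1 probe, which was not detected in any array: its signals were 77.5, 90.6 and 82.0 in D, E and F and 76.8, 91.4 and 86.8 in A, B and C on the linear scale. These signals are within the background of the array and say nothing of the level of NPM1.

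RNA polymerase I is represented by 3 subunits and 2 factors. POLR1A, the largest subunit of the polymerase, was detected in 1 array, so that its value of 0.0062 carries little. POLR1B, the next largest subunit, had a change of 0.08 and POLR1C, shared with RNA polymerase III, one of 0.16. RRN3, which recruits the polymerase to the promoter, stood at 0.05 (SE 0.14), the smallest SE of all members. UBTF, which binds the promoter and the transcribed gene, read 9.81, 9.84 and 9.61 in D, E and F and 9.58, 10.02 and 9.21 in A, B and C, a change of 0.15 (SE 0.20, limma adjusted p = 0.901). The siCCAR2 arrays of UBTF lay inside the range of the siLUC arrays.

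Over the 27 other factors tested, 19 lay above 0 and 8 below, with a median of 0.09. The 13 of them outside the rule for naming ran from -0.06 to 0.21.

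**Figure D3:**
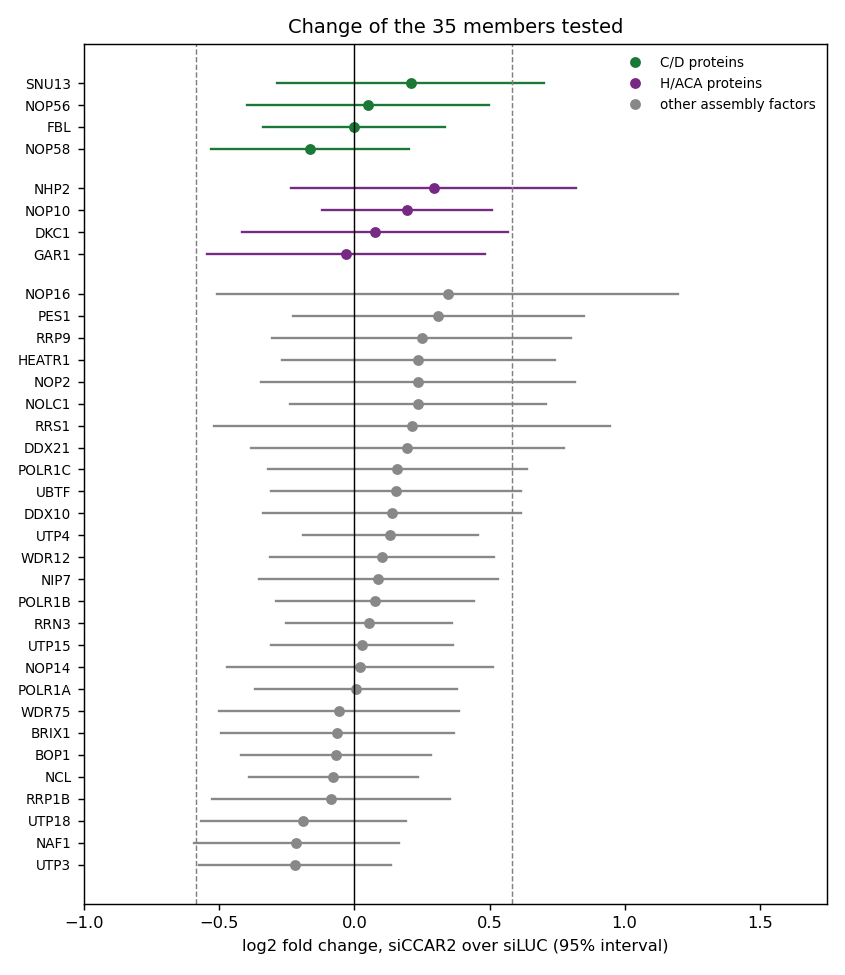
Log2 fold change, siCCAR2 over siLUC (x axis), of the 35 members tested (y axis), as points with 95% intervals from the limma fit (n = 3 arrays per condition). Dashed lines mark 1.5-fold either way, and all 35 intervals include 0.

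How large a change the unpaired fit could have missed is given by its intervals. They do not take out what the arrays of the pairs A-D, B-E and C-F share. Intervals with these pairs in the fit are not given here. For 21 of 35 members (60%) the 95% interval lay inside 1.5-fold either way, against 65.2% of all genes. The interval reached 0.31 to 0.85 either side of the change on the log2 scale, with a median of 0.45 (0.36 over all genes). For the other 14 members a change of 1.5-fold in one direction is within the interval.

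More than 1 probe was detected for 14 members, which allows the same gene to be read again from the same RNA. The changes of a gene's probes differed by a median of 0.10 and by under 0.1 in 7 of the 14 members, with WDR12 the closest at 0.01. Of the 57 detected probes, 42 lay above 0 and 15 below (49.5% of all detected probes lay below), and 51 were highest in array B or E. The probes were called in 0 of 57 cases, beside 0.0187% of all detected probes, with a smallest limma adjusted p of 0.771.

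Probes of 4 members had changes of opposite sign. GAR1 spread the most, with changes of 0.37, 0.14, -0.03 and -0.12 over 4 probes, and its signals in E exceeded those in D and F on each of them. UBTF had changes of 0.15, 0.15 (on a probe detected in only 3 arrays) and -0.26 over 3 probes. The last of these read 7.91, 7.93 and 7.83 in D, E and F and 8.14, 8.37 and 7.94 in A, B and C. It was the one detected member probe of which the groups did not overlap, where 5.80% of all detected probes had siCCAR2 below siLUC in this way. NCL had changes of 0.05 and -0.08, and NOP14 of 0.02 and -0.07.

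SNU13 had changes of 0.48, 0.21 and 0.04 over 3 probes. The first of these read 10.19, 10.44 and 10.62 in D, E and F and 9.88, 10.23 and 9.70 in A, B and C. It was the one probe of 57 with an unadjusted p under 0.05 (limma adjusted p = 0.771), against 6.37% of all detected probes, and its groups overlapped. Different probes of a gene can match different transcripts, and which transcripts these probes match was not looked at.

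**Figure D4:**
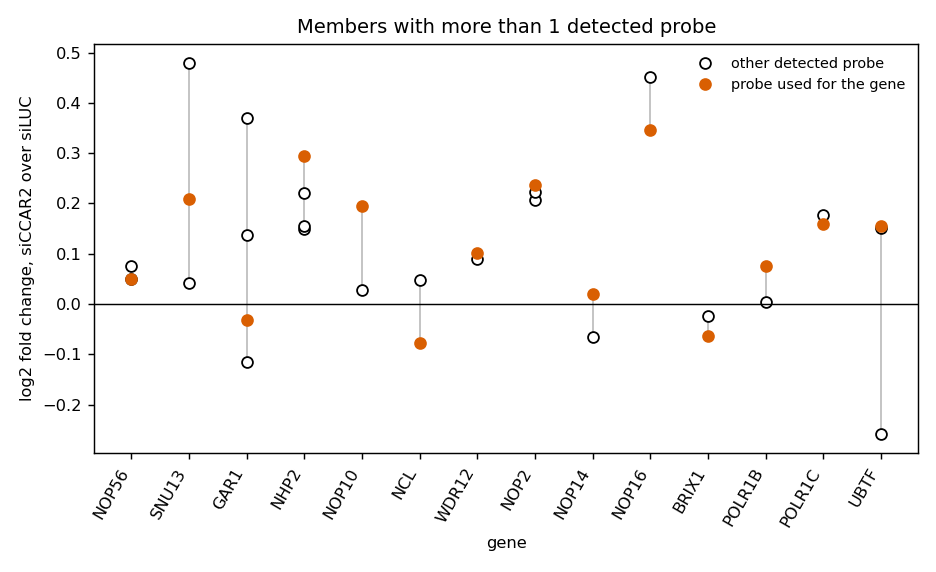
Log2 fold change, siCCAR2 over siLUC (y axis), of every detected probe of the 14 members with more than 1 (x axis). Filled points are the probes used for the gene and open points the others, and the widest gap is that of GAR1, at 0.49.

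Other genes of ribosome assembly, from lists that hold no member, had no called gene either. Of 51 small subunit factors tested, 40 lay above 0 and 11 below, with a median change of 0.09 and 0 called. By the smallest p, the leading genes were RIOK3, a kinase of the late small subunit particle (0.33, siCCAR2 arrays all above siLUC), TBL3 (0.34, likewise) and SURF6 (0.29). Of 52 large subunit factors, 42 lay above 0 and 10 below, with a median of 0.10 and 0 called. They were led by EIF6, which keeps the subunits apart (0.52), PPAN (0.52) and TMA16 (-0.30, siCCAR2 arrays all below siLUC). None of these 6 genes passed the test, at limma adjusted p of 0.767 to 0.793. Both lists had their median highest in arrays E and B, at 0.28 in E and 0.22 in B for the small subunit list and at 0.29 in E and 0.20 in B for the large subunit list. Without E both medians lay below 0, at -0.0086 and -0.02.

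RNA polymerase I and its factors had 12 of 17 genes above 0, with a median of 0.05. They were led by POLR1D (0.45, no overlap), POLR2F (0.27) and TOP1 (-0.23, no overlap). Factors of snoRNP assembly and RNA processing had 13 of 15 above 0, with a median of 0.04, led by the paired ATPases RUVBL1 (0.29) and RUVBL2 (0.20) and by TGS1 (0.20), which alters the cap of small RNAs. The RNA exosome list had 8 of 15 above 0, with a median of 0.03. It was led by EXOSC4 (0.42), a subunit of the exosome ring, XRN2 (-0.41), a nuclear exonuclease, and EXOSC8 (-0.27), also of the ring. In each of these genes the conditions did not overlap. EXOSC4 read 10.42, 10.59 and 10.47 in D, E and F and 10.02, 10.04 and 10.17 in A, B and C, with no overlap and a limma adjusted p of 0.767. In the MYC network 3 of 9 genes lay above 0, with a median of -0.15, led by MYC, MGA (-0.19) and MXI1 (-0.18). The number called by limma was 0 in each of the 6 lists. At an unadjusted p under 0.05 they held 2, 1, 1, 0, 2 and 0 genes in the order given, against 6.49% of all genes. Without overlap, siCCAR2 was lower in 1, 1, 3, 0, 3 and 0 genes, against 5.68% of all genes. The 3 genes were 17.6% of the RNA polymerase I list and 20% of the exosome list. Higher without overlap were 2, 1, 1, 0, 1 and 0 genes, against 6.35% of all genes. With the pairs A-D, B-E and C-F as a replicate block, 1 gene of these lists was called: MYCN of the MYC network (-0.75, limma adjusted p = 0.0302), where 1.66% of all genes were called. RRP12 of the small subunit list (0.52, adjusted p = 0.0380) and PPAN (0.52, 0.0433) were then under 0.05 without reaching 1.5-fold. MYCN and RRP12 were named after their values were seen. With every detected probe on its own, the median of the MYC network was 0.08 and that of the exosome -0.02.

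**Figure D5:**
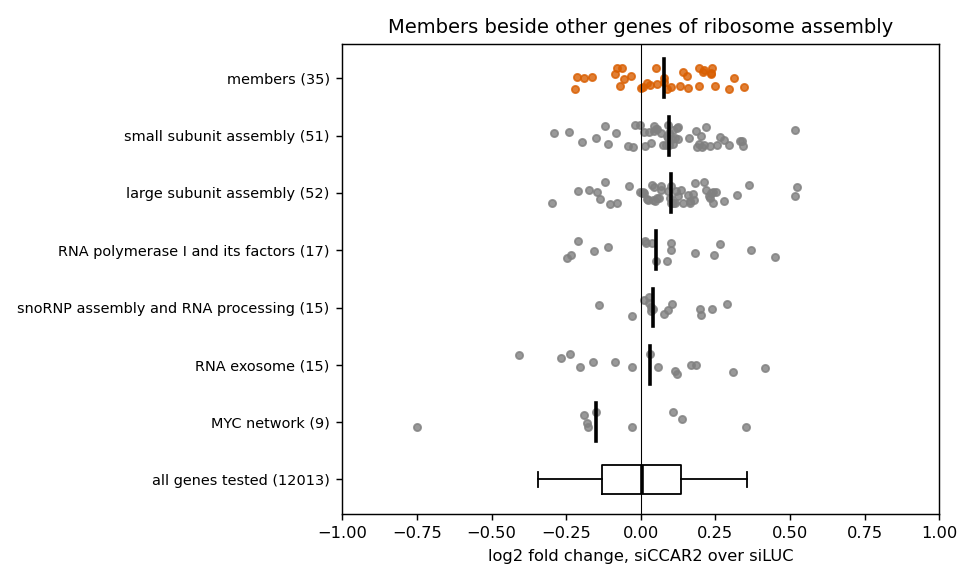
Log2 fold change, siCCAR2 over siLUC (x axis), of the members and of 6 lists of other genes (y axis, number tested in brackets), with points as genes and bars as medians. The box spans the quartiles of all 12013 genes and its whiskers the 5th to the 95th percentile, and the member median of 0.08 lies inside the box.

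The small shift of the members was also read with E, B or both left out. Without E, 24 of 35 members lay below 0 and the median was -0.04 (48.9% of all genes lay below 0). Without B, 5 of 34 lay below 0 and the median was 0.21 (50.1% of all genes). Then 6 members were higher at an unadjusted p under 0.05 (PES1, NHP2, RRP9, SNU13, NOP2 and NOP16), beside 8.08% of all genes, with 0 called and a smallest limma adjusted p of 0.164. Without both B and E, 11 of 34 lay below 0 and the median was 0.09 (49.4% of all genes below 0). In that setting 5 members were higher at an unadjusted p under 0.05 (PES1, NHP2, SNU13, NOP2 and NOP16), beside 6.92% of all genes, again with 0 called. With neither array the median was thus close to that with both. Under median scaling alone, where the median over all genes stood at -0.11, 21 of 35 members lay below 0 (70.4% of all genes) and the member median lay 0.05 above that of all genes. With the pairs A-D, B-E and C-F as a replicate block, which the labels do not give, 0 of 35 were called beside 1.66% of all genes. PES1 and NOP16 were then higher at an unadjusted p under 0.05, beside 9.09% of all genes. Within these pairs the median member differed by 0.02 between D and A, 0.06 between E and B and 0.19 between F and C, and 12 of 35 members lay above 0 in all 3 pairs, against 20.2% of all genes.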

How the data were processed

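On Human HT12_v4 bead arrays, RNA of 6 U2OS preparations was read (3 siCCAR2, 3 siLUC). What the authors deposited per probe is the mean bead intensity, linear and not normalized, with a detection p-value against negative control beads. The deposited normalized table is also an intensity, linear and quantile normalized. The methods name robust spline normalization, which was not run here. BeadStudio 3.8, an FFPE kit and a microRNA labelling guide stand in the labels, GenomeStudio, Qiazol and the TotalPrep kit in the methods.

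Log2 signals were quantile normalized without background correction. A probe was kept when its detection p was under 0.01 in at least 1 array. Of 47321 probes, 30112 carried 1 gene symbol, and 16021 of these were kept. A gene was represented by its probe with the most arrays detected, ties going to the larger interquartile range, which left 12013 genes. Conditions were compared in R 4.3.3 with limma 3.58.1 (lmFit, eBayes), unpaired, with Benjamini-Hochberg adjustment over these genes. The fit was tested on simulated data with independent noise of the same SD for every gene. These data held no deviations shared between arrays, so they do not test the fit on such deviations. Permutation tests over 20 regroupings were exact and two-sided. Precision is limited by the 3 arrays of each condition, and signals of different probes were not compared.

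Named are the 8 core proteins, the 6 other members of highest and the 6 of lowest change, members whose probes disagree in sign, 3 genes of smallest p per list, CCAR2 and MYC. Further members are named with their change to account for the set. Members and lists were chosen with earlier results of these data known. The labels pair no arrays, though the study's own list of genes is called paired, so all 6 possible pairings were run as a replicate block. Deviations from the group means correlated between D and A (0.61), E and B (0.67) and F and C (0.44). The fit was also repeated with neqc (offset 16), the deposited values, cyclic loess or median scaling, without the detection filter or with detection in 3 arrays, with the brightest probe or each probe, with trended robust eBayes, with array weights, with other thresholds and with arrays left out (B and E together after seeing the data). Promoter sequences came from RefSeq. Plots used matplotlib 3.10.9 (Python 3.11.15).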

Additional observations from a re-analysis of the deposited data

How the results depend on the processing

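The number of members called was 0 under all 23 other settings, and their median change ran from -0.06 (median scaling, under which the median of all genes was -0.11) to 0.21 (without array B). Relative to all genes, the median of the members under that scaling was 0.05. Of the 35 members, 23 changed sign under at least 1 setting, 22 of them under one other than median scaling. With E left out the median was below 0 in each subgroup and in the small subunit, large subunit, snoRNP assembly and exosome lists. Without A it was below 0 in the RNA polymerase I (-0.02) and exosome (-0.01) lists, and without B and E together in the exosome list (-0.10). The median of the MYC network list was above 0 with E left out (0.06) and with every detected probe on its own (0.08), where that of the exosome was -0.02. Under median scaling all of these lists had medians below 0, and those of the small subunit (0.08), large subunit (0.08), snoRNP assembly (0.07) and RNA polymerase I (0.02) lists lay above the median of all genes.

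Over all genes, 3 were called in the unpaired fit. The number was 0 with neqc, with median scaling, with the probe of highest mean signal and without B and E together, 18 with array weights and 0 to 7 with 1 array left out. With a replicate block it was 200 for A-D, B-E, C-F, 15 for A-F, B-E, C-D and 0 for the other 4 pairings. Under the first block the smallest limma adjusted p of a member was 0.189 (NOP16). The CCAR2 log2 fold change was -1.41 (limma adjusted p = 0.103) with neqc, -1.48 (0.0597) with median scaling, -1.34 (0.0596) with the probe of highest mean signal and -1.32 (0.109) without B and E. It was -1.34 under the 4 pairings with no call (0.401, 0.545, 0.113 and 0.9999), and -1.47 to -1.26 with 1 array left out. The causes were not tested.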
